A study of Mus musculus with 10 samples.

Results

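Cathepsins are the proteases of the lysosome and late endosome. This report follows 9 of them, Ctsa, Ctsb, Ctsc, Ctsd, Ctse, Ctsh, Ctsl, Ctss and Ctsz, chosen by gene name among the 55487 genes of an RNA sequencing table of mouse colonic intestinal epithelial cells (IECs). The table names 23 cathepsin genes in all, pseudogenes left out. All 9 members passed the filter on low values, a mean of at least 1 TPM, a unit of transcript abundance scaled for transcript length and library total, and were tested among 12870 genes.

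Libraries were made from IECs of the colon of 5 wild type (WT) and 5 RhoB-/- mice, all on strain C57BL/6J and with no treatment given in the labels. RhoB-/- mice are homozygous knockouts of Rhob, a small GTPase with known roles in vesicle traffic. The study's methods name a purchased source for WT males and a separate centre that generated the RhoB-/- mice, so genotype and the origin of the animals cannot be told apart. The labels give no age or sex, while the methods state a general age range in weeks for all mice unless stated otherwise. The cells were shaken off EDTA-treated colon pieces and no sort was described. In bulk RNA of this kind, more cells of a type and more RNA per cell cannot be told apart.

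Cathepsins are made as inactive precursors, carried to the lysosome mostly on mannose 6-phosphate receptors, and activated there by the acid that the V-ATPase pumps in. Most members are papain-like cysteine proteases (Ctsb, Ctsc, Ctsh, Ctsl, Ctss and Ctsz), Ctsd and Ctse are aspartic proteases, and Ctsa is a serine carboxypeptidase. Cystatins and some serpins inhibit them. In antigen-presenting cells Ctss and Ctsl cut the invariant chain Cd74 from MHC class II, and many cathepsin genes carry the CLEAR element that the transcription factor TFEB binds.

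Depth cannot be read from TPM, which scales each library to about the same total, so no counting error is given. TPM summed to 971419 to 993229 per library. Mitochondrial genes took 17.5% to 26.5% of TPM in WT and 10.3% to 22.4% in RhoB-/- libraries, with the highest share in WT replicate 1. Rhob was at 171 to 389 TPM in WT, 0.09 to 0.57 TPM in RhoB-/- replicates 1 to 4, and 110.87 TPM in replicate 5 as labelled. Epithelial markers were high in every library, with 8 markers summing to 17260 TPM or more. All log2 fold changes, also called log2 differences below, are differences of mean log2(TPM + 1), RhoB-/- minus WT, from limma, called at a Benjamini-Hochberg adjusted p below 0.05 over all 12870 genes. Of these genes 995 were higher and 1734 lower in RhoB-/- mice, and their median log2 fold change was -0.13. After subtracting each library's median log2 difference from the mean over libraries (centring), 2010 were higher and 1645 lower, and after rescaling without mitochondrial genes 1077 were higher and 3652 lower.

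The sequences just before the transcription start are shown for Ctss and Ctsz, which had the largest rises, and for Ctsa, whose level was about the same in both genotypes. They are the 250 bases before the RefSeq start on GRCm38.p6, 5′ to 3′ on the gene's own strand: chr3:95526536-95526785 (plus strand) for Ctss, chr2:174439040-174439289 (minus strand) for Ctsz and chr2:164832622-164832871 (plus strand) for Ctsa. None of these windows overlaps an exon of its own gene in GENCODE M21, and that of Ctsa runs into a coding exon of Neurl2 on the opposite strand. Capitals mark matches, on either strand, to a pair of GAAA words with any 2 bases between them (the core of the interferon-stimulated response element), TTCNNNGAA (the gamma-activated site), CACGTG (the core of the CLEAR element), TATAAA and GGGCGG.
Ctss: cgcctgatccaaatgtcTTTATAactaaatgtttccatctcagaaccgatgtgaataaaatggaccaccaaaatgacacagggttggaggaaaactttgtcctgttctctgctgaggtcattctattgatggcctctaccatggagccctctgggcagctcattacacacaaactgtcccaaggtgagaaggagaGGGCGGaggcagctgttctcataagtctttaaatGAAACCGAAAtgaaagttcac
Ctsz: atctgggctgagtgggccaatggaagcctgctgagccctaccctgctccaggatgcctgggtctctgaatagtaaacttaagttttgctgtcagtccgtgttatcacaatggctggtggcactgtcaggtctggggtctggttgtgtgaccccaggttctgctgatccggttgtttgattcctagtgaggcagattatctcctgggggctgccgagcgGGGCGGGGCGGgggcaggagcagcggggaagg
Ctsa: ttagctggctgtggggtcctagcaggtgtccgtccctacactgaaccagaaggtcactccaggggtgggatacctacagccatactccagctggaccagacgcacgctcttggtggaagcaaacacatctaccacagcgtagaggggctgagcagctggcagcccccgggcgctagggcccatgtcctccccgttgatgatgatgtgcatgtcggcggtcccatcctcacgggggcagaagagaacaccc

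The Ctss window held GAAACCGAAA, which begins 21 bases before the start, one GGGCGG beginning 55 bases before it and, on the opposite strand, a TATAAA at 233 bases. This response element core occurred in 2.98% of the 32851 windows of this length in the RefSeq table. It was in no other window of the 6 members that the table holds, Ctsa (with 2 starts), Ctsc, Ctsd, Ctsl, Ctss and Ctsz. The Ctsz window held 2 GGGCGG matches that overlap by their end base, at 32 and 27 bases before the start, a motif found in 32.7% of windows. The window shown for Ctsa held none of these motifs. CACGTG, found in 6.02% of windows, occurred 2 times before the start of Ctsd, 1 time before that of Ctsl and 1 time before the second Ctsa start. TTCNNNGAA, found in 7.02% of windows, occurred before Ctsc only among these members. TATAAA was in 12.4% of windows. These are matches of letters, not tested binding sites.

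Cathepsin RNA was higher in RhoB-/- IECs for 4 members, Ctss, Ctsz, Ctsl and Ctsb, and lower for 1, Ctse. The remaining 4 members, Ctsc, Ctsa, Ctsd and Ctsh, did not pass the test. Over all tested genes 7.73% were called higher and 13.5% lower. The median log2 fold change of the 9 members was 0.28, beside -0.13 for all tested genes. The members were chosen with earlier results of these data known, so setting them beside all genes is a description and no test of the set. For Ctss, Ctsz and Ctsl every RhoB-/- library exceeded every WT library, as for 5.97% of tested genes, and for Ctse every RhoB-/- library lay below every WT library, as for 8.55%. The study's thresholds (over 1.5-fold, with p below 0.05 before adjustment) were also applied to the limma fit. There 3 members were higher (Ctss, Ctsz and Ctsl) and 1 lower (Ctse), beside 6.37% and 8.33% of all tested genes, or 14.7% in either direction. These counts are not the study's own, which came from its own analysis and differ. The adjusted call in either direction covered 21.2% of tested genes and the lack of overlap 14.5%.

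**Figure D1:**
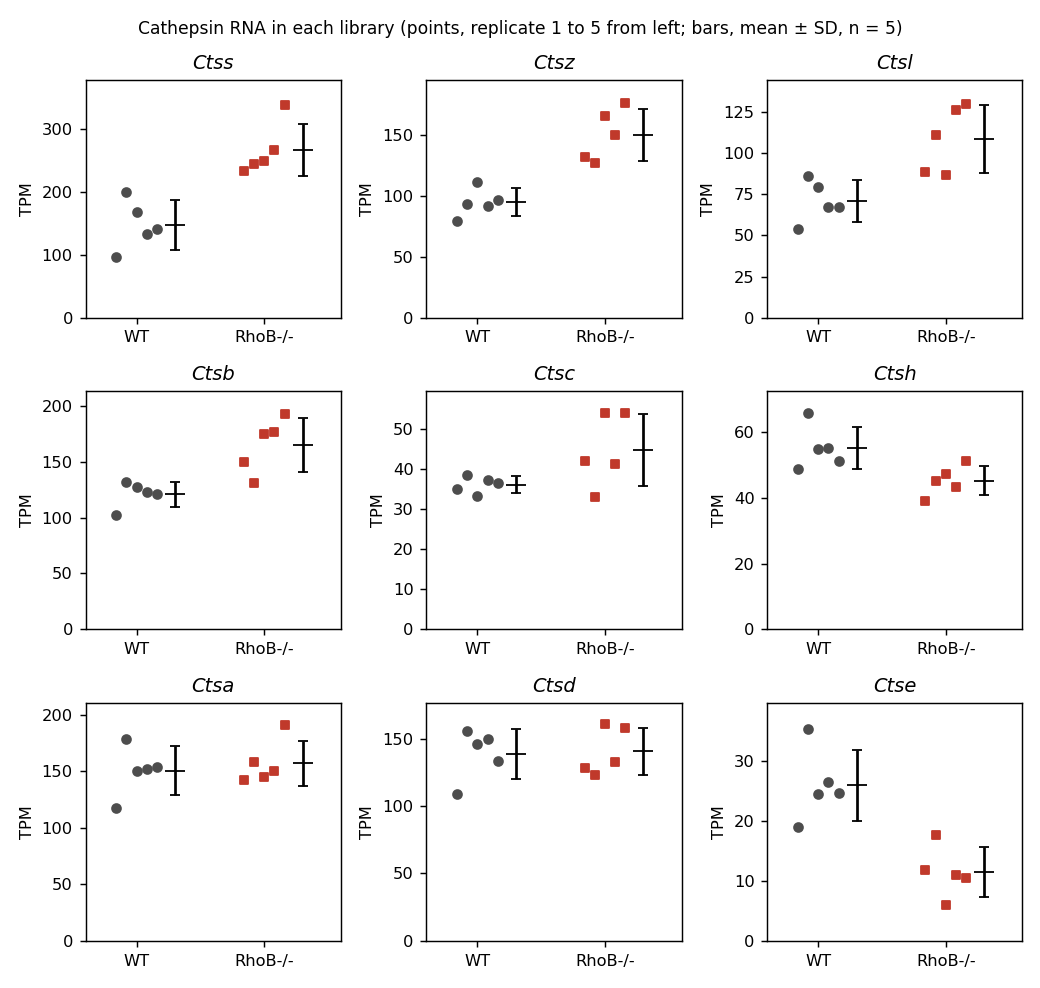
TPM of each of the 9 cathepsins in the 5 WT (circles) and 5 RhoB-/- (squares) libraries, with the mean and SD beside each group; every axis starts at 0. The groups stand apart for Ctss, Ctsz, Ctsl and Ctse, and overlap for the other members.

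Ctss is a cysteine protease that stays active at neutral pH and is known for its part in MHC class II loading. Its TPM in WT replicates 1 to 5 was 95.9, 200.3, 167, 133 and 141, and in RhoB-/- replicates 1 to 5 it was 234, 245, 249.7, 266 and 338. The lowest RhoB-/- library lay above the highest WT library, WT replicate 1 was the lowest of all, and the library labelled RhoB-/- replicate 5 was the highest. The mean rose from 147 ± 39.1 (SD, n = 5) to 267 ± 41.7 TPM (SD, n = 5). The log2 difference was 0.88 ± 0.18 (SE; limma adjusted p = 0.00655), or 1.01 relative to the median of tested genes. Ctss (ENSMUSG00000038642) lies on the plus strand of chromosome 3 from 95526786 to 95556403, with up to 8 exons in 2 annotated transcripts. Ctsk, the cathepsin of bone-resorbing osteoclasts, ends 17423 bases before it on the same strand and was at 0.19 TPM or less in every library.

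Ctsz, also called cathepsin X, is a carboxypeptidase that removes single residues from the C-terminus of proteins. It had 79.6, 93.7, 112, 92.2 and 96.8 TPM in WT and 132, 127, 166, 150.35 and 176 TPM in RhoB-/- replicates 1 to 5. The groups did not overlap, with the highest WT library at 112 TPM and the lowest RhoB-/- library at 127 TPM. The mean rose from 94.9 ± 11.6 to 150.4 ± 21.2 TPM (SD, n = 5 each), a log2 difference of 0.66 ± 0.12 (SE; limma adjusted p = 0.00421). Ctsz (ENSMUSG00000016256) is on the minus strand of chromosome 2, 174427493 to 174439039, and has 1 annotated transcript with 6 exons.

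Ctsl is a cysteine endopeptidase and a main degradative enzyme of the lysosome. Its WT values were 53.9, 86.4, 79.4, 67.1 and 67.3 TPM, and its RhoB-/- values 88.7, 111, 86.5, 126 and 130.03 TPM. The groups were only just apart, since RhoB-/- replicate 3 at 86.49 TPM was next to WT replicate 2 at 86.39 TPM. The mean rose from 70.8 ± 12.6 to 109 ± 20.4 TPM (SD, n = 5 each), a log2 difference of 0.61 ± 0.16 (SE; limma adjusted p = 0.0196). Without WT replicate 4 the log2 fold change was 0.59 with an adjusted p of 0.0506 (limma), and without WT replicate 1 and RhoB-/- replicate 5 together it was 0.44 with 0.0776. Ctsl (ENSMUSG00000021477) is on the minus strand of chromosome 13, 64359337 to 64370890.

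Ctsb, a cysteine protease that also trims dipeptides from the C-terminus, showed the smallest of the 4 rises. It had 102, 132, 127, 123 and 121 TPM in WT and 149.6, 131, 175, 176 and 193 TPM in RhoB-/- replicates 1 to 5. RhoB-/- replicate 2 lay inside the WT range, just under WT replicate 2, and the other 4 RhoB-/- libraries lay above it. The mean rose from 121 ± 11.4 to 165 ± 24.4 TPM (SD, n = 5 each), a log2 difference of 0.44 ± 0.12 (SE; limma adjusted p = 0.0274). This call was the least stable of the 5: it was lost when WT replicate 1, 4 or 5 or RhoB-/- replicate 4 or 5 was left out (adjusted p from 0.0538 to 0.0661, limma), and without WT replicate 1 and RhoB-/- replicate 5 together (log2 fold change 0.32, adjusted p = 0.102). Ctsb (ENSMUSG00000021939) is on the plus strand of chromosome 14, 63122462 to 63145923. The span of Fdft1 on the opposite strand covers 774 of its exonic bases. The mean of Fdft1 itself was 59.1 TPM in WT and 46.3 TPM in RhoB-/- libraries, and while the methods name an orientation mode for the alignment, whether reads were counted by strand is not given in the sources used here.

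Ctse was the member that fell. It is an aspartic protease of endosomes that, unlike Ctsd, is restricted to a few cell types, among them cells of the gut lining and of the immune system. It had 19.0, 35.3, 24.5, 26.5 and 24.6 TPM in WT and 11.9, 17.7, 6.05, 10.9 and 10.5 TPM in RhoB-/- replicates 1 to 5. No RhoB-/- library reached the lowest WT library, WT replicate 1. The mean fell from 26.0 ± 5.92 to 11.4 ± 4.18 TPM (SD, n = 5 each), a log2 difference of -1.16 ± 0.23 (SE; limma adjusted p = 0.0051). Ctse (ENSMUSG00000004552) is on the plus strand of chromosome 1, 131638306 to 131675505.

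Ctsc and Ctsh are aminopeptidases of the papain family. Ctsc, also called dipeptidyl peptidase 1, activates the granule proteases of cytotoxic lymphocytes, mast cells and neutrophils. Its TPM was 35.1, 38.7, 33.3, 37.4 and 36.6 in WT and 42.1, 33.0, 54.1, 41.3 and 54.0 in RhoB-/- replicates 1 to 5. Of the RhoB-/- libraries 4 lay above the WT range and replicate 2 lay below it. The log2 fold change was 0.28 (95% confidence interval -0.01 to 0.57, adjusted p = 0.15, limma). Without RhoB-/- replicate 2 it was 0.38 with an adjusted p of 0.0377 (limma). Quantile normalization gave 0.26 (adjusted p = 0.0261) and centring each library 0.40 (adjusted p = 0.00612). Ctsc (ENSMUSG00000030560) is on the plus strand of chromosome 7, 88278085 to 88310888.

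Ctsh had 48.9, 65.8, 54.9, 55.2 and 51.3 TPM in WT and 39.2, 45.2, 47.4, 43.4 and 51.3 TPM in RhoB-/- replicates 1 to 5. All RhoB-/- libraries were below the WT mean and 4 of 5 below the lowest WT library. The means were 55.2 ± 6.46 and 45.3 ± 4.50 TPM (SD, n = 5 each), a log2 difference of -0.28 (95% confidence interval -0.52 to -0.04, unadjusted p = 0.0245, adjusted p = 0.0852, limma). Quantile normalization (-0.29, adjusted p = 0.0208) and rescaling without mitochondrial genes (-0.35, adjusted p = 0.00784, limma) brought it past the threshold. Ctsh (ENSMUSG00000032359) is on the plus strand of chromosome 9, 90054152 to 90076089.

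Ctsa and Ctsd were among the most abundant members in WT mice and showed no difference beyond the spread between mice. Ctsa, also called protective protein, holds the sialidase Neu1 and beta-galactosidase Glb1 in a complex. It had 118 to 179 TPM in WT (median 152) and 142 to 191 TPM in RhoB-/- libraries (median 150.3), and its log2 fold change was 0.07 (95% confidence interval -0.21 to 0.34, adjusted p = 0.731, limma). Ctsd, the main aspartic protease of the lysosome, had 109 to 155 TPM in WT (median 146) and 123 to 161 TPM in RhoB-/- libraries (median 133). The log2 fold change of Ctsd was 0.02 (95% confidence interval -0.25 to 0.29, adjusted p = 0.919, limma). Changes of the sizes within these intervals remain compatible with the values of these mice. Ctsa (ENSMUSG00000017760) is on chromosome 2, 164832873 to 164841032, and Ctsd (ENSMUSG00000007891) on chromosome 7, 142375911 to 142388038. Of the exonic bases of Ctsd, 1498 lie within the span of Gm49369 on the same strand, a gene at 0.25 to 4.17 TPM.

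**Figure D2:**
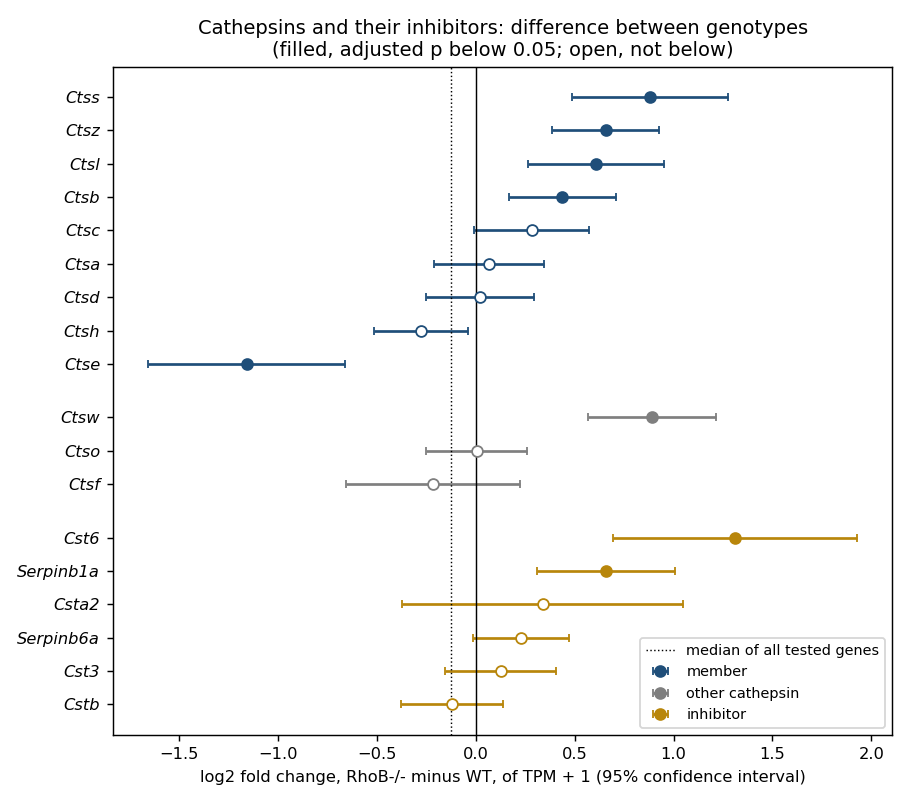
Log2 fold change of TPM + 1, RhoB-/- minus WT, with its 95% confidence interval from limma, for the 9 members, the 3 other cathepsins and the 6 inhibitors that were tested; filled points have an adjusted p below 0.05 and the dotted line is the median of all tested genes. The members run from 0.88 for Ctss to -1.16 for Ctse, and Ctsa and Ctsd sit near 0.

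The order of the members by level differed between the genotypes. In WT libraries it was Ctsa, Ctss, Ctsd, Ctsb, Ctsz, Ctsl, Ctsh, Ctsc and Ctse from the highest mean TPM to the lowest. Ctsa exceeded Ctss in 3 of 5 WT libraries and Ctss exceeded Ctsd in 3 of 5, so the order of these top members was not beyond their spread, while each later step held in 5 of 5. In RhoB-/- libraries Ctss came first in 5 of 5, followed by Ctsb, Ctsa, Ctsz, Ctsd, Ctsl, Ctsh, Ctsc and Ctse. There Ctsb exceeded Ctsa in 4 of 5 libraries, Ctsa exceeded Ctsz in 3 of 5, and Ctsh exceeded Ctsc in 2 of 5. Ctse was the lowest member in all 10 libraries. TPM is scaled by transcript length, so levels of different genes can be set side by side.

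The 9 members together took 661, 986, 895, 836 and 826 TPM in WT and 968, 992, 1091, 1098 and 1302 TPM in RhoB-/- replicates 1 to 5. WT replicate 2 lay inside the RhoB-/- range and the other WT libraries lay below it. Ctss made up 14.5% to 20.3% of this sum in WT and 22.9% to 26.0% in RhoB-/- libraries. The share of Ctsz was 9.503% to 12.5% in WT and 12.8% to 15.2% in RhoB-/- libraries. The shares of these 2 members were higher without overlap, and those of 4 members, Ctsa, Ctsd, Ctse and Ctsh, were lower without overlap. A share falls when other members rise: Ctsd went from 16.5% ± 0.82 to 12.9% ± 1.12 (SD, n = 5 each) at nearly the same TPM.

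**Figure D3:**
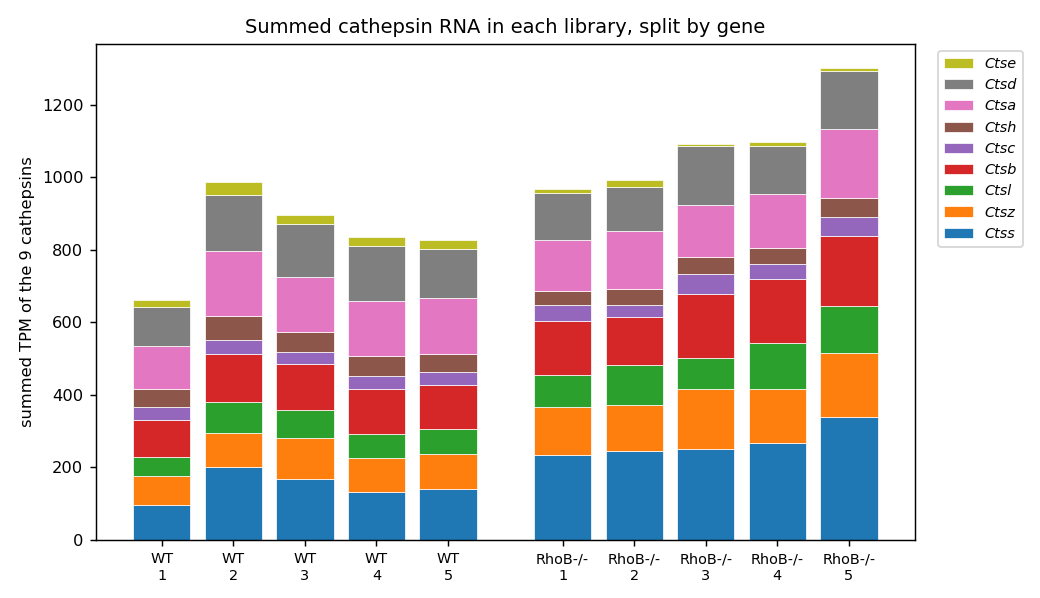
Summed TPM of the 9 cathepsins in each library, stacked by gene, for WT and RhoB-/- replicates 1 to 5. The stacks reach 661 to 986 TPM in WT and 968 to 1302 TPM in RhoB-/- libraries, and the Ctss block at the base is the largest in every RhoB-/- library.

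Ratios between members within a library do not depend on how the libraries were scaled. The ratio of Ctss to Ctsd was 0.88, 1.29, 1.15, 0.889 and 1.05 in WT and 1.83, 1.99, 1.55, 2.01 and 2.15 in RhoB-/- replicates 1 to 5. Ctss over Ctsh ran from 1.96 to 3.05 in WT and from 5.27 to 6.59 in RhoB-/- libraries. Ctsb over Ctsh ran from 2.01 to 2.36 and from 2.90 to 4.07, without overlap, although the TPM of Ctsb overlapped between genotypes. The mean of Ctsh was itself lower in RhoB-/- libraries (55.2 TPM in WT and 45.3 TPM in RhoB-/-), so both genes of a ratio to Ctsh enter its gap. Ctsb over Ctsd ran from 0.82 to 0.937 in WT and from 1.06 to 1.33 in RhoB-/- libraries. Not every ratio stood apart: Ctsl over Ctsd ran from 0.448 to 0.556 in WT and from 0.538 to 0.952 in RhoB-/- libraries, although the TPM of Ctsl did not overlap, and the ratios of Ctsa and Ctsc to Ctsd overlapped too. Ctss over Ctse ran from 5.01 to 6.85 in WT and from 13.8 to 41.3 in RhoB-/- libraries. This gap follows from the TPM of Ctss and Ctse, which moved in opposite directions without overlap, and adds nothing to them.

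Of 13 other listed cathepsin genes, 3 were tested and 1 was called, beside 21.2% called over all tested genes. Ctsw, a cathepsin of cytotoxic T and natural killer (NK) cells, went from 2.31 ± 0.456 to 5.15 ± 0.913 TPM (SD, n = 5 each), with no overlap and a log2 difference of 0.89 (limma adjusted p = 0.00189). The 8 listed T and NK cell markers moved with it: their summed TPM was 8.94 to 19.2 in WT and 50.7 to 60.3 in RhoB-/- libraries, and all 6 that were tested rose, led by Gzma (4.23 to 23.98 TPM), Gzmb (2.54 to 13.8 TPM), Nkg7 (1.498 to 5.10 TPM) and Cd8a (0.832 to 2.94 TPM). Over all tested genes 7.73% were called higher. The part of T and NK cells in the Ctsw result was not tested. Ctso had 6.66 and 6.73 TPM and Ctsf 7.10 and 6.19 TPM in WT and RhoB-/- mice. The other 10 stayed below 1 TPM, and 8 of them were listed at 0 in every library.

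Cathepsin inhibitors were measured for 20 of 21 listed genes, of which 6 were tested, 2 rose and none fell (median log2 fold change 0.28). This is a share called of 33.3%, beside 21.2% of all tested genes, and it rests on few genes. Cst6, a secreted cystatin that binds Ctsl and legumain, rose from 3.41 ± 1.56 to 9.48 ± 2.46 TPM (SD, n = 5 each; log2 fold change 1.31, adjusted p = 0.0082, limma), with no overlap. Serpinb1a, an inhibitor of neutrophil serine proteases that include cathepsin G, rose from 231 ± 32.0 to 370.06 ± 84.7 TPM (log2 fold change 0.66, adjusted p = 0.0149, limma). Ctsg itself was listed at 0 in every library. The broad cystatins Cst3 (139 and 151 TPM) and Cstb (132 and 121 TPM) did not pass the test.

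Of 44 other hydrolases of the lysosome 43 were tested, 5 rose and 7 fell. This is a share called of 27.9%, near the 21.2% of all tested genes (7.73% higher and 13.5% lower), and their median log2 fold change was -0.16. Neu1, the sialidase that Ctsa protects, rose from 58.6 ± 20.7 to 134 ± 23.3 TPM (SD, n = 5 each; log2 fold change 1.23, adjusted p = 0.00315, limma). Its TPM was 34.1 to 85.4 in WT and 108 to 166 in RhoB-/- libraries, without overlap, while Glb1 of the same complex had 41.0 and 35.2 TPM and was not called. Lipa, the acid lipase, rose from 12.9 to 20.5 TPM (log2 fold change 0.61), and Hyal2, a hyaluronidase, from 24.7 to 35.8 TPM (0.50). Lgmn, the asparaginyl protease that processes several cathepsins, rose from 18.8 ± 2.70 to 26.5 ± 4.47 TPM (log2 fold change 0.47, adjusted p = 0.0327, limma).

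Among the hydrolases that fell, Gaa, the acid alpha-glucosidase, went from 15.4 to 8.81 TPM (log2 fold change -0.74), Sgsh, a heparan sulfatase, from 5.08 to 2.71 TPM (-0.70) and Ppt2, a thioesterase, from 17.3 to 11.2 TPM (-0.56). The groups did not overlap for any of these 3 genes.

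The lists of the apparatus that delivers and acidifies were called at 15.8% (membrane), 6.25% (V-ATPase) and 21.4% (sorting), beside 21.2% of all tested genes. Of 19 tested lysosomal membrane genes 2 rose and 1 fell: the cholesterol exporter Npc1 (15.4 to 29.7 TPM, log2 fold change 0.88), Lamp2 (59.1 to 75.7 TPM, 0.35) and the cystine exporter Ctns, which fell from 9.84 to 6.55 TPM (-0.50). Of 16 V-ATPase subunits 1 rose, Atp6v0a2 (41.4 to 59.4 TPM, log2 fold change 0.49), and the list's median was 0.17. Of 14 genes of sorting to the lysosome 1 rose and 2 fell. Lrp1, an endocytic receptor, rose from 55.2 to 89.9 TPM (log2 fold change 0.70). Gnptab, the enzyme that starts the mannose 6-phosphate tag, fell from 10.8 to 6.50 TPM (-0.64), and Cln6 fell from 14.5 to 10.3 TPM (-0.46). Of the TFEB family, Tfeb had 10.2 and 10.9 TPM and Tfe3 11.8 and 11.9 TPM in WT and RhoB-/- mice, with log2 fold changes of 0.09 (95% confidence interval -0.17 to 0.35) and 0.01 (-0.20 to 0.22). Mitf and Tfec stayed below 1 TPM.

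**Figure D4:**
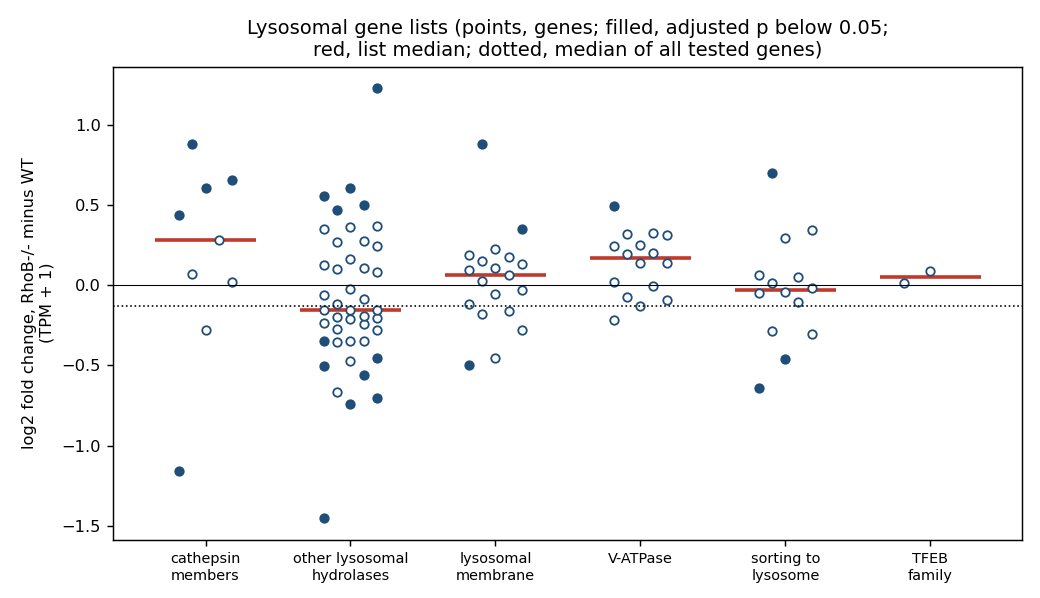
Log2 fold change of TPM + 1, RhoB-/- minus WT, for every tested gene of the cathepsins and 5 other lysosomal lists; filled points have an adjusted p below 0.05, red lines are list medians and the dotted line is the median of all tested genes, -0.13. The cathepsin median is 0.28 and that of the other hydrolases -0.16, with called genes on both sides of 0 in each.

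Ctss acts on Cd74 in the MHC class II route, and the class II genes and Cd74 are transcribed under Ciita. Of 12 listed genes of that route 9 were tested and 7 rose, Lgmn among them, with a list median of 2.50. Over all tested genes 7.73% rose. The largest rises were those of Cd74, H2-Aa, H2-Eb1 and H2-Ab1, by 4.29, 3.82, 3.20 and 3.13 on the log2 scale (limma adjusted p = 0.0149, 0.0306, 0.0329 and 0.0199). The groups stood apart for only 2 of the 9 tested genes, Cd74 and H2-Ab1, and RhoB-/- was higher without overlap for 5.97% of all tested genes. Ciita itself was not called (log2 fold change 1.25, limma adjusted p = 0.0885). It was at 0.45 TPM or less in WT and at 5.93, 0.31, 7.44, 0.43 and 1.21 TPM in RhoB-/- replicates 1 to 5. Cd74 was at 4.83 to 10.64 TPM in WT and at 876, 14.0, 1391, 36.1 and 224 TPM in RhoB-/- replicates 1 to 5. In the same RhoB-/- libraries, in the same order, Ctss was 234, 245, 249.7, 266 and 338 TPM. Whether the rises of Ctss and Cd74 are linked was not tested. Ifi30, the lysosomal thiol reductase, had 133 and 117 TPM in WT and RhoB-/- mice and was not called.

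Macrophages, dendritic cells and B cells also express Ctss. Among 12 macrophage and monocyte markers 1 of the 4 tested rose, Cd68 from 0.988 to 3.74 TPM, and their summed TPM was 18.0 to 31.5 in WT and 22.9 to 47.6 in RhoB-/- libraries, most of it Cd14 at 20.4 and 24.5 TPM on average. Csf1r averaged 0.184 TPM in WT and 0.466 TPM in RhoB-/- libraries, with 0.83 TPM the highest value. Adgre1 was at 0.06 TPM or less in WT and reached 2.14 TPM in RhoB-/- replicate 5. Lyz2 averaged 0.868 and 2.40 TPM and was not called (limma adjusted p = 0.0676). The mean of Mrc1 went the other way, from 0.41 to 0.268 TPM. The 6 dendritic cell markers, none of them tested, summed to 0.18 to 0.58 TPM in WT and 0.58 to 1.86 TPM in RhoB-/- libraries, and the 6 B and plasma cell markers, none of them tested, to 0.18 to 1.01 and 0.99 to 14.1 TPM. The TPM of Ctss set beside that of these markers does not give a share of cells. The part of these cells in the Ctss difference was not tested. Other listed markers with a mean of at least 5 TPM were Ly6g, Mcpt1, Kit and Dcn. Ly6g, at 21.2 and 71.1 TPM in WT and RhoB-/- mice, was the only marker tested of 5 for neutrophils. Of 4 mast cell markers 3 were tested, and Mcpt1 and Mcpt2 rose. Mcpt1 had 0.418 and 12.5 TPM and Kit 15.6 and 11.7 TPM. Of 6 fibroblast markers 2 were tested and 1 rose, Dcn (2.02 and 9.74 TPM). Dcn was at 3.27 to 5.28 TPM in RhoB-/- replicates 1 to 3 and at 11.1 and 24.5 TPM in replicates 4 and 5. Over all tested genes 7.73% were called higher. The sums of these lists were 11.8 to 33.7 and 53.9 to 107 TPM for neutrophil, 12.1 to 18.4 and 14.5 to 47.5 TPM for mast cell and 2.98 to 4.04 and 5.72 to 35.1 TPM for fibroblast markers. Most of the neutrophil sums was Ly6g. Most of the mast cell sums in WT was Kit, whose mean was lower in RhoB-/- libraries. Of the untested neutrophil markers, Csf3r was at 0.09 TPM or less in WT and 0.18 to 0.77 TPM in RhoB-/- libraries, S100a8 and S100a9 were listed at 0 in all WT libraries and reached 4.99 and 4.23 TPM in RhoB-/- libraries, and Mpo was listed at 0 in every library. The 4 endothelial markers summed to 1.37 to 2.09 and 1.42 to 2.78 TPM. Among 8 epithelial markers, Krt20 and Vil1 of differentiated colonocytes rose (720.2 to 1652 TPM and 324 to 514 TPM). The other 6 did not pass the test, Car1 and Slc26a3 among them (limma adjusted p = 0.203 and 0.324). The share of epithelial markers called was 25%, near the 21.2% of all tested genes. Of 6 goblet cell markers Clca1 and Fcgbp rose and 4 did not pass the test, a share called of 33.3%. Of those 4, Agr2 had 2231 and 1539 TPM (log2 difference -0.59, 95% confidence interval -1.02 to -0.16, limma adjusted p = 0.0523) and Muc2 had 4981 and 4294 TPM (-0.19) in WT and RhoB-/- libraries.

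**Figure D5:**
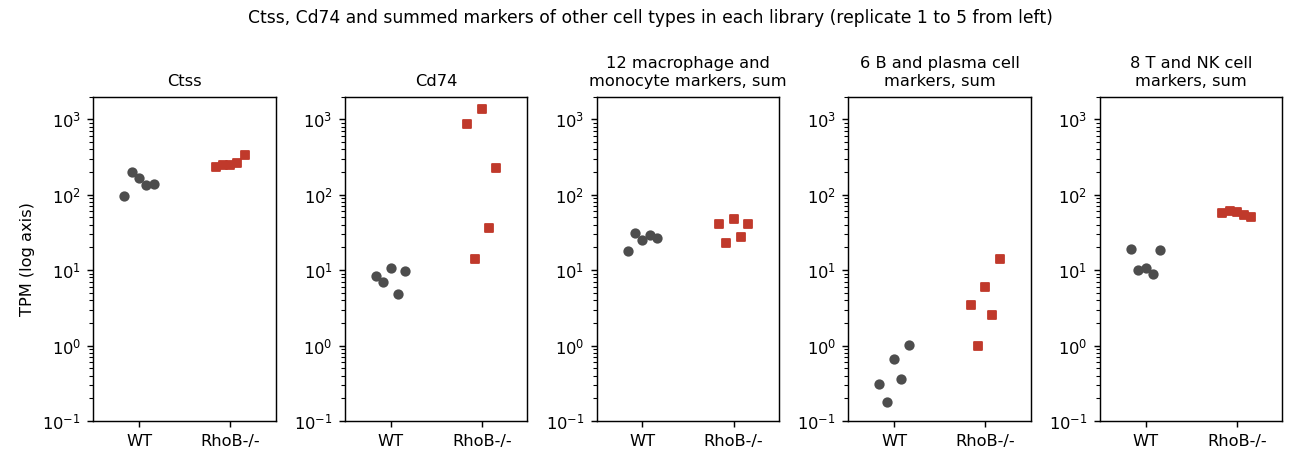
TPM on a log axis of Ctss, of Cd74 and of summed markers of macrophages and monocytes, B and plasma cells, and T and NK cells, in WT (circles) and RhoB-/- (squares) replicates 1 to 5. Ctss spans 234 to 338 TPM and Cd74 spans 14.0 to 1391 TPM in RhoB-/- libraries. Levels of different genes do not give the share of cells of a type.

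The genes most like each called member were taken as those with the smallest mean absolute difference in centred log2(TPM + 1) over the 10 libraries, among 7010 other genes with a mean of at least 10 TPM. For Ctss they were Cdhr5, Gsdmd and Slc9a2, at distances of 0.097, 0.099 and 0.11 log2 units. Gsdmd, for example, averaged 77.0 TPM in WT and 138 TPM in RhoB-/- libraries. The nearest other member, Ctsl, was the 48th gene in that order, at 0.17. For Ctsz they were Cystm1, Myo5b and Tsc22d4 (0.048, 0.058 and 0.063), for Ctsl Synpo, Tmem106a and Slc35f5 (0.11, 0.12 and 0.12), and for Ctsb F11r, Arl8a and Coro1b (0.047, 0.049 and 0.051). Ctse had no gene as near, with Ggh, Ano1 and Itih5 at 0.15, 0.17 and 0.18. Of the members that were not called, Ctsc was nearest to Elovl1, Tm9sf2 and Sri (0.031, 0.044 and 0.050), Ctsh to Nipsnap2, Cdip1 and Sh3bgrl (0.033, 0.047 and 0.052), Ctsa to Arhgap18, Rgs3 and Nr1i2 (0.046, 0.050 and 0.055) and Ctsd to Rtf2, Pef1 and Necap2 (0.026, 0.038 and 0.043). In no case was another cathepsin among the 3 nearest genes. Distances are shorter for genes that vary little, and they carry no test.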

How the data were processed

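RNA sequencing covered colonic IECs of 10 mice, 5 of each genotype, each mouse giving 1 library. Sample titles gave the genotype and the replicate number. According to the methods and the submitters' processing notes, the authors used SeqPrep and Sickle for trimming, HISAT2 in orientation mode for alignment (build GRCm38.p6), StringTie for assembly and RSEM for quantification. The authors deposited TPM values with 2 decimals, which were used as given. Tool versions and the annotation release are not given in the sources used here.

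From these values, log2(TPM + 1) was fitted with limma 3.58.1 (lmFit, eBayes with an intensity trend) in R 4.3.3, without covariates, over the 12870 genes whose mean reached 1 TPM, and p-values were adjusted over all of them by Benjamini-Hochberg. Errors of TPM are SD between mice. Positions are from GENCODE M21 on GRCm38, in which 55141 of 55487 gene identifiers were found, and sequences from RefSeq on GRCm38.p6.

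The members and the gene lists were chosen with earlier results of these data known. The lists were compiled by hand. Named genes are all members, from each list at most 4 called genes per direction by size of change, markers of other cell types with a mean of at least 5 TPM, and the 3 genes nearest to each member. Other named genes (Ctsk, Ctso, Ctsf, Ctsg, Cst3, Cstb, Glb1, Lgmn among the hydrolases, Tfeb, Tfe3, Mitf, Tfec, Ciita, Ifi30, Csf1r, Adgre1, Lyz2, Mrc1, Mpo, Csf3r, S100a8, S100a9, Agr2, Muc2, Car1, Slc26a3 and the overlapping genes) were chosen after their values were seen. Some genes that this rule would name are not reported here. Alternatives were a pseudocount of 0.1, no filter, a mean TPM of at least 5, quantile normalization, centred libraries, rescaling without mitochondrial genes, limma without the trend, a replicate block, the study's thresholds (unadjusted p below 0.05 and fold change above 1.5), each library left out and, chosen after seeing the data, WT replicate 1 and RhoB-/- replicate 5 left out together.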

Additional observations from a re-analysis of the deposited data

Results flagged for a closer look

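Rhob in the library labelled RhoB-/- replicate 5 was at 110.87 TPM, far from the other 4 RhoB-/- libraries. It was the 1 value apart among 20 groups of 5 values, those of the 9 cathepsins and Rhob in each genotype. Chance gives about 1 such value in that many groups, but this rate takes no account of the size of the gap. Rhob is the targeted gene and was at 0.09 to 0.57 TPM in the other 4 RhoB-/- libraries. Whether the label of replicate 5 is right was not tested. No cathepsin value stood apart from its group in this way, although that library held the highest value of its group for Ctsa, Ctsb, Ctsh, Ctsl, Ctss and Ctsz. Without it, Ctss, Ctsz, Ctsl and Ctse were still called and Ctsb was not (adjusted p = 0.065, limma).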

How the results depend on the processing

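Ctss, Ctsz and Ctse kept their direction and an adjusted p below 0.05 in all 19 alternative fits, with log2 fold changes of 0.65 to 0.999, 0.54 to 0.77 and -1.33 to -0.97. Ctsl did so in 17 and Ctsb in 12, and Ctsa and Ctsd were called in 0 of 19 (limma; unadjusted p in the fit reported 0.606 and 0.868). Leaving out each library gave 2 to 5 members higher and always 1 lower, beside 719 to 1154 genes higher and 853 to 2868 lower over all genes, the last without RhoB-/- replicate 3. Without WT replicate 1 and RhoB-/- replicate 5, 2 members and 612 genes were higher. Members lower numbered 2 with quantile normalization and 2 without mitochondrial genes, where Ctsh joined Ctse. Genes higher numbered 1587 with quantile normalization and 2010 with centred libraries. Genes lower numbered 1104 with the stricter filter, where fewer genes were tested, 3652 without mitochondrial genes and 1072 in the limma fit read at the study's thresholds. The cause of these differences was not tested. The sources used here state no pairing of mice by replicate number. Same-numbered deviations correlated from -0.087 to 0.072 and 1 of 5 numbers was nearest to its own, which cannot show whether mice were paired. With a replicate block 1059 genes were lower, and Ctsb had an adjusted p of 0.0573 (limma), with 3 members higher. TPM keeps no depth, so its limits could not be assessed.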
